A study of Mus musculus with 15 samples.

Results

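Aquaporins are channels that let water cross cell membranes, and 8 genes of the family were followed in the colon of Il10-/- and C57 mice: Aqp1, Aqp3, Aqp4, Aqp5, Aqp7, Aqp8, Aqp9 and Aqp11. They were taken by name from the gene annotation of the array, and all 8 had a value among the 19076 genes measured. The list was chosen by name with the genotype differences of these arrays in view, that is, selected on the log2 differences given below, so the differences of its members are a description, without p-values. The 8 genes had 13 array features: 3 each for Aqp4 and Aqp9, 2 for Aqp7 and 1 for each of the others.

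RNA came from the full thickness of the colon wall of 15 male mice, with 1 mouse on each 2-colour Agilent array. At 7 weeks of age there were 3 Il10-/- mice (numbers 75, 77 and 78) and 4 C57 mice (43 to 46), and at 12 weeks 4 Il10-/- mice (92, 94, 95 and 96) and 4 C57 mice (63 to 66). The Il10-/- mice (B6.129P2-Il10<tm1Cgn>/J) lack the gene for interleukin-10, a cytokine that restrains inflammation, in all cells, and they develop colitis. The C57 controls were C57BL/6J mice. Mice of both genotypes were dosed by mouth with the same mixture of Enterococcus faecalis and Enterococcus faecium strains and gut bacteria, and had the same AIN-76A diet and matched amounts of food. The study left out Il10-/- mice of 7 weeks that already showed inflammation, so this group stands for mice that it classed as without colitis. That class allowed low injury scores. The Il10-/- mice of 12 weeks had colitis. Every value is a log2 ratio of colon RNA over a common pool made from liver, kidney, small bowel, colon and fetal RNA of healthy Swiss mice. A value of 0 means the same signal in colon and pool, and a value of 1 means double the signal in colon. The zero therefore depends on the pool, and levels of different genes were not compared.

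The 15 arrays had 41687 to 42147 features with a value each and medians from -0.01 to -0.00. No signal intensities were used here, so how bright a feature was is unknown, and the number of arrays limits the precision. Liver genes, which the pool contains, averaged -3.68 to -2.86 over the mice, as colon in the numerator requires. Il10 itself ranged from -0.17 to 0.25 over all mice and differed between genotypes by 0.14 ± 0.09 at 7 weeks and 0.13 ± 0.08 at 12 weeks (SE, limma adjusted p = 0.37 and 0.36). Where its feature lies relative to the deletion is not known here, so these values do not test the labels. Markers of neutrophils had a list mean of 0.16 to 0.51 in Il10-/- mice and -0.32 to -0.18 in C57 mice at 7 weeks, and of 0.25 to 0.92 in Il10-/- mice and -0.25 to -0.06 in C57 mice at 12 weeks. These list means rested mainly on S100a8 and S100a9. The median difference of the 7 markers measured was 0.06 at 7 weeks and 0.15 at 12 weeks. Mpo, for example, averaged 0.03 in Il10-/- mice and -0.01 in C57 mice at 7 weeks, and -0.02 and -0.00 at 12 weeks. In bulk tissue, fewer cells of a type and less RNA per cell cannot be told apart.

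Water follows salt across the gut wall, and the colon takes back most of the water that reaches it. Some family members pass water almost alone (Aqp1, Aqp4 and Aqp5), others also pass glycerol (Aqp3, Aqp7 and Aqp9), Aqp8 passes water, ammonia and hydrogen peroxide, and Aqp11 lies in membranes inside the cell. Aqp8 and Aqp4 are known from the absorptive epithelium of the colon surface and Aqp1 from the endothelium of vessels and from red blood cells.

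The start regions of 3 members are shown: Aqp8 and Aqp1, which met the thresholds given below in opposite directions at 7 weeks, and Aqp11, whose genotypes did not overlap at either age. Aqp4 also met the thresholds at 7 weeks and is not shown. Each run covers 250 bases before to 50 bases after the RefSeq start of the gene (GRCm38.p6), 5′ to 3′ on the strand of the gene, at chr7:123462044-123462343 (+) for Aqp8, chr6:55336049-55336348 (+) for Aqp1 and chr7:97738198-97738497 (-) for Aqp11. Capitals mark matches to 6 short motifs that were searched on both strands. These were the core promoter box TATAAA, the E-box CACGTG of basic helix-loop-helix factors, the motif TTTATNG of the intestinal Cdx factors, the motif AGATAA of zinc finger factors that include the gut regulators Gata4 and Gata6, the nuclear receptor half-site AGGTCA and the half-site AGAACA of steroid receptors.
Aqp8: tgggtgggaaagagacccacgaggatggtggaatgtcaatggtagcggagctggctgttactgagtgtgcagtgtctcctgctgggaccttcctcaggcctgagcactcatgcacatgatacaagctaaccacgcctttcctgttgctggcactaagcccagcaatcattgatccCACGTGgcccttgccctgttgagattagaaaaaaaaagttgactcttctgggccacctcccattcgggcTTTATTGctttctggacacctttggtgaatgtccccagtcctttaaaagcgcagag
Aqp1: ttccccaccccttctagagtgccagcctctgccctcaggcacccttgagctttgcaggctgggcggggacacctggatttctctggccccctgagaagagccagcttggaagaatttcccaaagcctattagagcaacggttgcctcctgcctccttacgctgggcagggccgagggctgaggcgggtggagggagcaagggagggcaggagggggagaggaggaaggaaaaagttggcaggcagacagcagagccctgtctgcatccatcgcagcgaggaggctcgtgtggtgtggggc
Aqp11: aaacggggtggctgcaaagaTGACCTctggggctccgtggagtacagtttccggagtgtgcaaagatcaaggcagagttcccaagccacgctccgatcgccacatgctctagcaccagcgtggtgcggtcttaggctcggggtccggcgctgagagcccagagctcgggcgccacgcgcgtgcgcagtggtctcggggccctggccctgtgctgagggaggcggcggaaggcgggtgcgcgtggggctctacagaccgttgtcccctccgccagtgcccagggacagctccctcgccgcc

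The window of Aqp8 held CACGTG with its first base at -75 from the start and TTTATTG, a form of TTTATNG, at -6. Of 32817 RefSeq promoters of this length, 7.15% held CACGTG and 10.9% held TTTATNG. The window of Aqp11 held TGACCT, which is AGGTCA read on the other strand, at -230, and 16.3% of promoters held this motif. The window of Aqp1 held no match to these 6 motifs, of which TATAAA occurred in 13.6% of promoters, AGATAA in 11.2% and AGAACA in 19.0%. One form of TTTATNG on the other strand, CTATAAA, contains TATAAA. Promoter windows were found for 7 of the 8 members, and a match is a description of the letters, not of a site in use. Windows of the other members were also searched: Aqp3 held TATAAA at -29 and Aqp5 held CACGTG at -87. A window of Aqp9 held AGAACA at -138, counted from a RefSeq start inside the span of the gene given below. The starts of the Aqp7 windows also lie inside the span of that gene. Of the windows of Aqp7, one held AGATAA at -132, TGACCT at -49 and AGAACA at 1, and the other held TGACCT at -223 and -101 and AGAACA at -173. None of these 4 genes met the thresholds below in any comparison.

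The genes lie on several chromosomes (GRCm38.p6). Aqp8 (chr7:123462294-123468003) and Aqp11 (chr7:97726379-97738247) share chromosome 7 at a distance. Aqp3 (chr4:41092724-41098183) and Aqp7 (chr4:41033074-41048237) are close to each other on chromosome 4, and Aqp5 (chr15:99591028-99594829) lies between Aqp2 (chr15:99579056-99584545) and Aqp6 (chr15:99598468-99605478). Aqp1 (chr6:55336299-55348555), Aqp4 (chr18:15389394-15410982) and Aqp9 (chr9:71110659-71167849) have a chromosome each.

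At 7 weeks, in mice that the study classed as without colitis, Aqp8 and Aqp4 were higher in Il10-/- mice than in C57 mice and Aqp1 was lower. At 12 weeks Aqp8 was lower in Il10-/- mice, and no other member met the thresholds, which asked for at least 1.5-fold with an adjusted p below 0.05 in a limma fit over all 19076 genes. At 7 weeks 3 of 8 members met them, 2 higher and 1 lower in Il10-/- mice, where 2.42% of all genes did (1.4% higher and 1.01% lower). At 12 weeks 1 of 8 did, on the lower side, in a background of 2.52% (1.5% higher and 1.02% lower). The median difference of the members was -0.05 at 7 weeks and -0.09 at 12 weeks, against -0.01 and -0.00 over all genes. For 5 members (Aqp1, Aqp3, Aqp4, Aqp8 and Aqp11) the mice of the genotypes did not overlap at 7 weeks, as for 23.1% of all genes, and for 3 (Aqp4, Aqp8 and Aqp11) they did not overlap at 12 weeks, as for 13.5% of all genes. Nothing is read from these counts, since the members were chosen with them known.

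**Figure D1:**
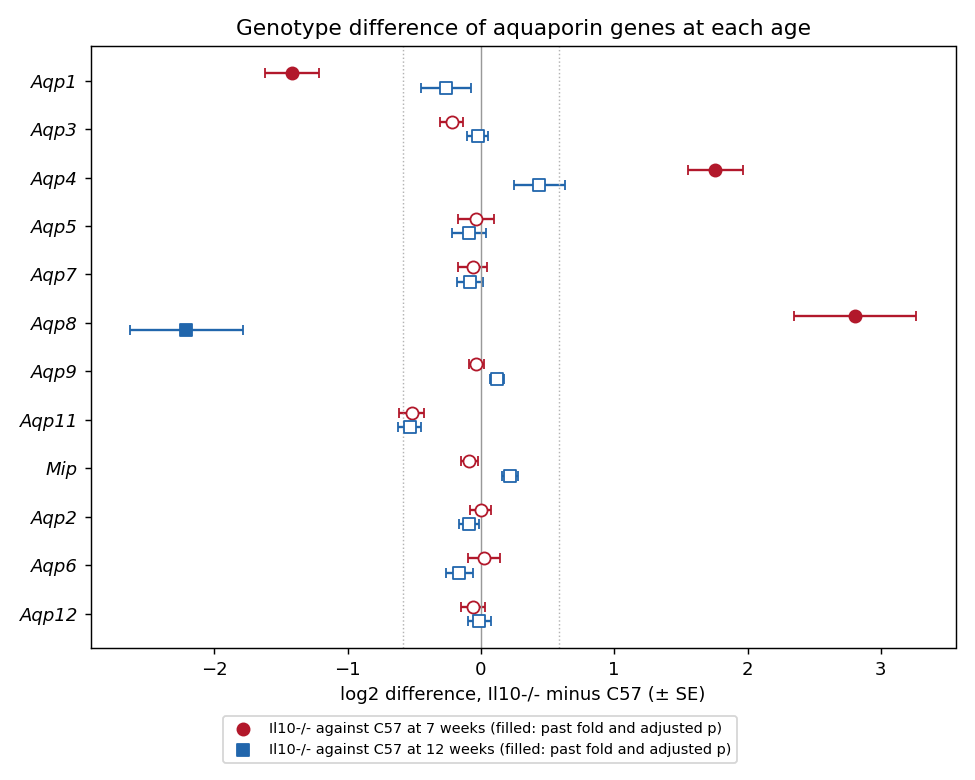
Log2 difference of each aquaporin gene, Il10-/- minus C57 (x axis, ± SE), at 7 weeks (circles) and 12 weeks (squares), with the 8 members above and 4 other family genes below; filled symbols met the fold of 1.5 (dotted lines) and the adjusted p threshold. Aqp8 lies at 2.81 at 7 weeks and at -2.21 at 12 weeks, on opposite sides of 0, whereas Aqp11 lies at -0.52 and -0.53.

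Aqp8 had the widest spread of values among the members. At 7 weeks its log2 ratio was -0.88 (mouse 75), 1.10 (mouse 77) and 1.68 (mouse 78) in Il10-/- mice, against -2.25, -2.35, -2.11 and -1.99 in C57 mice 43 to 46. All Il10-/- mice lay above all C57 mice of this age, with mouse 75 between the C57 mice and its own group. The difference was 2.81 ± 0.46 (SE), a 7.00-fold higher ratio in Il10-/- mice. Leaving out 1 mouse at a time gave 2.29 to 3.56, with the highest value without mouse 75.

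At 12 weeks the order of the genotypes for Aqp8 was turned round. Its log2 ratio was -0.46, -1.27, 0.33 and 0.03 in Il10-/- mice 92, 94, 95 and 96, against 1.52, 1.80, 1.84 and 2.29 in C57 mice 63 to 66. The groups did not overlap, and the difference was -2.21 ± 0.42, a 4.62-fold lower ratio in Il10-/- mice, which met the thresholds but not a limma test against a fold of 1.5 (treat). The 12-week difference minus the 7-week difference was -5.02 ± 0.62 and met the thresholds. For this measure 3 members met them (Aqp1 with a positive value, Aqp4 and Aqp8 with negative values), in a background of 1.15% of all genes (0.493% positive and 0.655% negative).

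Between the ages Aqp8 differed more in C57 mice than in Il10-/- mice. It averaged 1.86 ± 0.32 in C57 mice of 12 weeks and -2.17 ± 0.16 in C57 mice of 7 weeks (SD, n = 4 each), a difference of 4.04 ± 0.42 (SE). Aqp8 was the only member that met the thresholds between ages within C57 mice, in a background of 0.404% (0.231% higher and 0.173% lower at 12 weeks). Its C57 mice of the 2 ages did not overlap, as for 8.62% of all genes. In Il10-/- mice it averaged -0.34 ± 0.70 at 12 weeks (SD, n = 4) and 0.63 ± 1.34 at 7 weeks (SD, n = 3), a difference of -0.98 ± 0.46 (SE) that did not meet the thresholds. Without mouse 75 this difference was -1.73 ± 0.33 and met them, and without mouse 78 it was -0.46 ± 0.45 and did not. In order of its group means Aqp8 was highest in C57 mice of 12 weeks, then in Il10-/- mice of 7 weeks, in Il10-/- mice of 12 weeks and in C57 mice of 7 weeks. The middle groups overlapped, and mouse 78 lay within the range of the C57 mice of 12 weeks.

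**Figure D2:**
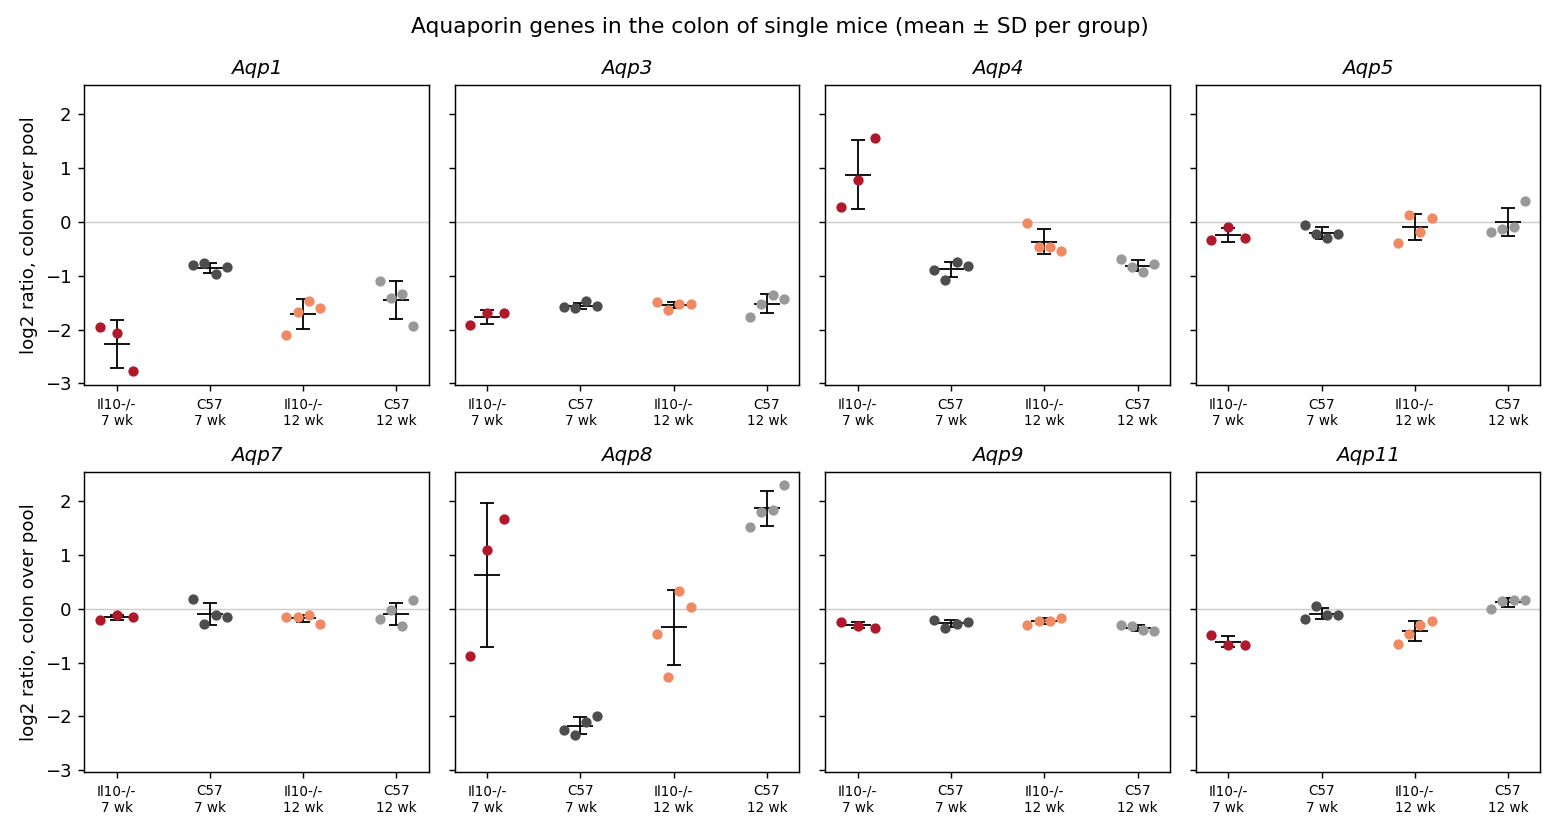
Log2 ratio of colon over pool (y axis) of the 8 aquaporin genes in every mouse, by group, with bars for the mean ± SD (n = 3 for Il10-/- mice of 7 weeks and n = 4 for the other groups). For Aqp8 the C57 mice lie between -2.35 and -1.99 at 7 weeks and between 1.52 and 2.29 at 12 weeks, while Aqp3, Aqp5, Aqp7 and Aqp9 lie near the same level in all groups.

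Aqp4 was higher in Il10-/- mice at 7 weeks on all of its features. The mean of its 3 features was 0.28 (mouse 75), 0.79 (mouse 77) and 1.56 (mouse 78) in Il10-/- mice, against -0.89, -1.07, -0.74 and -0.82 in C57 mice 43 to 46. The groups were apart, and the Il10-/- mice spread more widely (SD 0.64, n = 3) than the C57 mice (SD 0.14, n = 4). The difference was 1.76 ± 0.21 (SE), a 3.38-fold higher ratio. It was 2.47 ± 0.28, 1.52 ± 0.21 and 1.29 ± 0.15 on the single features, each of which met the thresholds over 42128 features.

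At 12 weeks Aqp4 was at -0.02, -0.47, -0.46 and -0.53 in Il10-/- mice 92, 94, 95 and 96, against -0.69, -0.83, -0.94 and -0.78 in C57 mice 63 to 66. All Il10-/- mice again lay above all C57 mice, but the difference of 0.44 ± 0.19 did not meet the thresholds. The 12-week difference minus the 7-week difference was -1.32 ± 0.28 and met them, though not under treat or without C57 mouse 44 (-1.26) or Il10-/- mouse 96 (-1.26). Within Il10-/- mice Aqp4 was lower at 12 than at 7 weeks by -1.25 ± 0.21, the only member to meet the thresholds there, in a background of 0.419% (0.299% higher and 0.121% lower at 12 weeks). Aqp3 and Aqp4 had no overlap between the Il10-/- mice of the 2 ages, as had 13.5% of all genes. Aqp4 did not meet them under treat or when only these 2 groups entered the fit. C57 mice differed by 0.07 ± 0.19 between the ages, so the order of the levels was Il10-/- mice of 7 weeks, Il10-/- mice of 12 weeks and then the C57 mice of both ages, which overlapped each other.

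**Figure D3:**
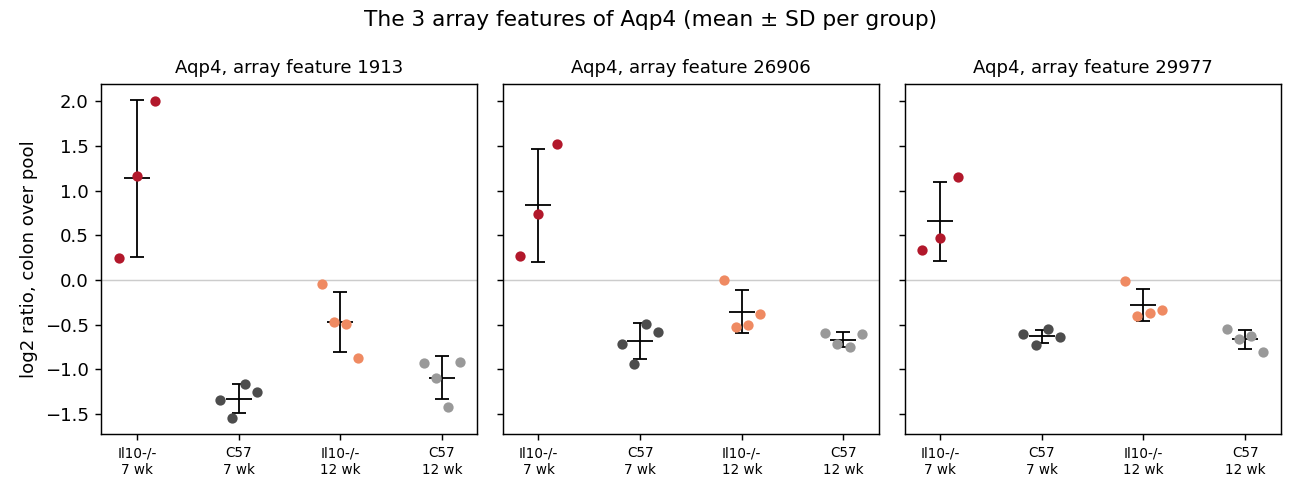
Log2 ratio of colon over pool (y axis) on each of the 3 array features of Aqp4 in every mouse, by group, with bars for the mean ± SD (n = 3 for Il10-/- mice of 7 weeks and n = 4 for the other groups). On every feature all Il10-/- mice of 7 weeks lie above 0 and all C57 mice of that age lie below it.

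Aqp1 was lower in Il10-/- mice at 7 weeks. Its log2 ratio was -1.94, -2.07 and -2.78 in Il10-/- mice 75, 77 and 78, against -0.80, -0.77, -0.97 and -0.84 in C57 mice 43 to 46. The groups were apart, with mouse 78 the lowest, and the difference was -1.42 ± 0.20 (SE), a 2.67-fold lower ratio. It met the thresholds, but not a limma test against a fold of 1.5 (treat). At 12 weeks Aqp1 was at -2.10, -1.67, -1.47 and -1.60 in Il10-/- mice, against -1.10, -1.41, -1.35 and -1.93 in C57 mice. Here the groups overlapped, and the difference of -0.26 ± 0.19 did not meet the thresholds.

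The 12-week difference of Aqp1 minus its 7-week difference was 1.15 ± 0.27 and met the thresholds. It no longer did under treat, under scale normalization (1.04) or quantile normalization (1.01) between arrays, or without any 1 of C57 mice 43, 44, 45, 46, 64 and 66 and Il10-/- mice 77, 78, 94, 95 and 96 (0.89 to 1.25). Within C57 mice Aqp1 was lower at 12 weeks than at 7 weeks by -0.60 ± 0.19, and within Il10-/- mice it was higher at 12 weeks by 0.55 ± 0.20. Neither met the thresholds, although the C57 mice of the 2 ages did not overlap. By group means Aqp1 was highest in C57 mice of 7 weeks, followed by C57 mice of 12 weeks, Il10-/- mice of 12 weeks and Il10-/- mice of 7 weeks, and only the first of these groups stood clear of the next.

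Aqp11, whose loss causes cystic kidneys in mice, had about the same genotype difference at both ages, at a size below the fold threshold. At 7 weeks it was at -0.49, -0.67 and -0.68 in Il10-/- mice, against -0.20, 0.05, -0.11 and -0.11 in C57 mice. At 12 weeks it was at -0.66, -0.47, -0.30 and -0.23 in Il10-/- mice, against -0.01, 0.15, 0.17 and 0.17 in C57 mice. All Il10-/- mice lay below all C57 mice of their age. The differences of -0.52 ± 0.09 at 7 weeks and -0.53 ± 0.09 at 12 weeks are 1.43-fold and 1.45-fold, just outside the 1.5-fold threshold. By the adjusted p alone Aqp11 passed at both ages, as 8.2% of all genes did at 7 weeks and 10.1% at 12 weeks. The difference between the 2 ages was -0.02 ± 0.13. Between ages Aqp11 differed by 0.20 ± 0.09 in Il10-/- mice and 0.21 ± 0.09 in C57 mice, neither of which met the thresholds.

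The glycerol channels did not meet the thresholds in any comparison. Aqp3, found in epithelia of colon, skin and kidney, was at -1.92, -1.70 and -1.70 in Il10-/- mice, against -1.57, -1.60, -1.48 and -1.57 in C57 mice at 7 weeks. The groups did not overlap, but the difference was only -0.22 ± 0.09. At 12 weeks Aqp3 was at -1.54 ± 0.06 in Il10-/- mice and -1.52 ± 0.18 in C57 mice (SD, n = 4 each), with overlap and a difference of -0.03 ± 0.08 (SE). Aqp7, the glycerol channel of fat cells, differed by -0.06 ± 0.11 at 7 weeks and -0.08 ± 0.10 at 12 weeks. Its 2 features differed in sign at 7 weeks, at -0.19 ± 0.13 and 0.07 ± 0.11, and neither exceeded its error by much. Aqp9, which carries glycerol into liver cells, differed by -0.03 ± 0.06 at 7 weeks and 0.12 ± 0.05 at 12 weeks, with group means between -0.36 and -0.23 throughout.

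Aqp5, a water channel of salivary and tear glands, averaged -0.24 ± 0.13 in Il10-/- mice (SD, n = 3) and -0.20 ± 0.10 in C57 mice (SD, n = 4) at 7 weeks. At 12 weeks it averaged -0.10 ± 0.24 in Il10-/- mice and -0.00 ± 0.26 in C57 mice (SD, n = 4 each). The differences of -0.04 ± 0.14 and -0.09 ± 0.13 were within the spread of the mice. Values this close to 0 can come from equal signal in colon and pool or from a dim feature, and the ratios do not separate these. With 3 or 4 mice in a group, differences of the size of these errors cannot be seen.

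The 4 other family genes on the array were not members and did not meet the thresholds in any comparison. Mip, the water channel of the lens, differed by -0.09 ± 0.07 at 7 weeks (limma adjusted p = 0.499) and 0.22 ± 0.06 at 12 weeks (adjusted p = 0.0329), a 1.16-fold difference at the later age. Aqp2, the vasopressin-controlled channel of the kidney, differed by -0.00 ± 0.08 and -0.09 ± 0.07. Aqp6, of kidney intercalated cells, differed by 0.02 ± 0.12 and -0.16 ± 0.10, with no value for mouse 75. Aqp12, of the pancreas, differed by -0.06 ± 0.09 and -0.01 ± 0.08. None of the last 3 had an adjusted p under 0.362 at either age. Without adjustment 0 of the 4 had p under 0.05 in limma at 7 weeks and 1, Mip, at 12 weeks. The adjusted p alone passed 8.2% of all genes at 7 weeks and 10.1% at 12 weeks. At least these shares therefore had p under 0.05 without adjustment. The shares without adjustment were themselves not counted, here or below.

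Water moves with ions, and of 29 listed genes for ion and fatty acid transport in the colonic epithelium 26 were measured. Past the thresholds, 1 was higher and 0 were lower in Il10-/- mice at 7 weeks, and 1 was higher and 2 were lower at 12 weeks. Of all genes 1.4% were higher and 1.01% lower at 7 weeks, and 1.5% and 1.02% at 12 weeks. The median of the list was 0.05 at 7 weeks and -0.10 at 12 weeks, against -0.01 and -0.00 over all genes. Without adjustment 11 of the 26 had p under 0.05 in limma at 7 weeks and 8 at 12 weeks, as had at least 8.2% and 10.1% of all genes. Genes past the adjusted p alone went both ways. They included Clcn2 (0.57 ± 0.11) and Slc4a2 (-0.54 ± 0.15) at 7 weeks and Kcnn4 (0.37 ± 0.08) and Atp1b1 (-0.53 ± 0.14) at 12 weeks. Slc5a8, a sodium-coupled transporter of short-chain fatty acids, was the gene higher at both ages (0.98 ± 0.13, adjusted p = 0.00025, and 1.15 ± 0.12, adjusted p = 1.5e-05). Slc16a1, a monocarboxylate transporter, was lower at 12 weeks (-1.03 ± 0.11, adjusted p = 1.5e-05) and higher at 12 than at 7 weeks in C57 mice (0.85 ± 0.11, adjusted p = 0.0011). Within C57 mice 2 genes of the list were higher and 1 was lower at 12 weeks, as were 0.231% and 0.173% of all genes. The lower gene was the sodium-proton exchanger Slc9a3 (-0.75 ± 0.15, adjusted p = 0.024).

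Slc26a3, the chloride-bicarbonate exchanger of the colon surface, was lower in Il10-/- mice at 12 weeks by -1.50 ± 0.21 (adjusted p = 0.00018). At 7 weeks its difference of 0.68 ± 0.22 did not pass (adjusted p = 0.076), and the 12-week minus the 7-week difference was -2.19 ± 0.31 (adjusted p = 0.0027). Per mouse it was at 0.42 (mouse 75), 1.09 (mouse 77) and 1.56 (mouse 78) in Il10-/- mice of 7 weeks, against 0.25 to 0.37 in C57 mice of that age. At 12 weeks it was at -0.25 to 0.27 in Il10-/- mice, against 1.11 to 1.95 in C57 mice. In C57 mice it was higher at 12 than at 7 weeks by 1.15 ± 0.21 (adjusted p = 0.014). Mouse 75 was the lowest Il10-/- mouse of 7 weeks for Slc26a3, Aqp8 and Aqp4.

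For the 12-week minus the 7-week genotype difference, 0.655% of all genes were negative and 0.493% positive past the thresholds. Over the same list 4 genes were negative and 0 were positive. Besides Slc26a3 and Slc16a1 (-1.12 ± 0.16, adjusted p = 0.0035) these were Slc9a3r1, a scaffold of the sodium-proton exchanger (-0.84 ± 0.19, adjusted p = 0.034), and the chloride channel Clcn2 (-0.71 ± 0.15, adjusted p = 0.023). Of 11 genes of glycerol handling 9 were measured, and of 12 genes of osmotic and hormonal control of water transport 11 were measured. In both lists 0 genes met the limma thresholds in any of the 5 comparisons. Between genotypes 4 of their genes, named after their values were seen, passed the adjusted p and missed the fold. In the glycerol list Gpd1, a glycerol phosphate dehydrogenase, was lower in Il10-/- mice at 7 weeks (-0.41 ± 0.08, adjusted p = 0.0034) and 12 weeks (-0.50 ± 0.07, adjusted p = 0.00025). Mgll, the lipase of monoglycerides, was lower at 7 weeks (-0.36 ± 0.09, adjusted p = 0.023) and 12 weeks (-0.51 ± 0.08, adjusted p = 0.00081). In the other list the cation channel Trpv4 was lower (-0.36 ± 0.11, adjusted p = 0.048) and Vipr1, a receptor of vasoactive intestinal peptide, was higher (0.31 ± 0.07, adjusted p = 0.017) at 7 weeks. Without adjustment, p was under 0.05 at 7 and 12 weeks for 3 and 2 genes of glycerol handling and for 4 and 3 genes of osmotic and hormonal control. Of all genes at least 8.2% at 7 weeks and 10.1% at 12 weeks had such a p, the shares past the adjusted p.

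**Figure D4:**
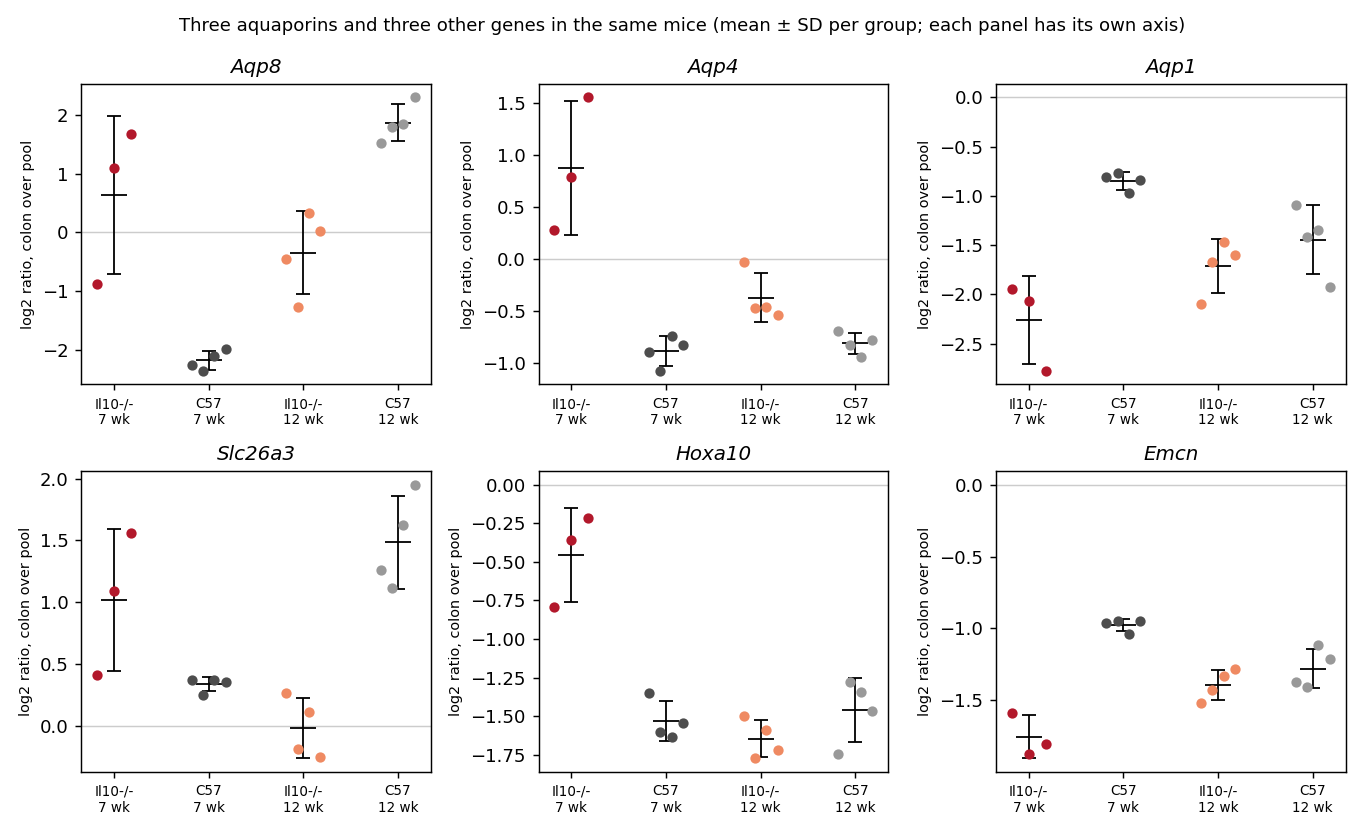
Log2 ratio of colon over pool (y axis, a separate scale in each panel) in every mouse for Aqp8, Aqp4 and Aqp1 (top) and for Slc26a3, Hoxa10 and Emcn (bottom), by group, with bars for the mean ± SD (n = 3 for Il10-/- mice of 7 weeks and n = 4 for the other groups). Slc26a3 is at -0.25 to 0.27 in Il10-/- mice and 1.11 to 1.95 in C57 mice of 12 weeks, and Hoxa10 is at -0.80 to -0.21 in Il10-/- mice and -1.64 to -1.35 in C57 mice of 7 weeks.

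Markers of the cells and gut regions that carry these channels were set beside them. For surface colonocytes 10 of 10 markers were measured, and the list mean was 0.89 to 1.06 in Il10-/- mice and 0.68 to 0.93 in C57 mice at 7 weeks, with overlap. At 12 weeks it was 0.51 to 0.73 in Il10-/- mice and 0.65 to 1.14 in C57 mice, again with overlap. The median difference of the 10 was 0.14 at 7 weeks and -0.12 at 12 weeks. Krt20, a keratin of this list, was at the value that many features of an array share on 11 of 15 arrays, and the values without it were added after seeing the data. Over the other 9 markers the list mean was 1.00 to 1.17 in Il10-/- mice and 0.75 to 0.99 in C57 mice at 7 weeks, without overlap, and 0.56 to 0.81 in Il10-/- mice and 0.77 to 1.22 in C57 mice at 12 weeks, with overlap. Their median difference was 0.24 at 7 weeks and -0.18 at 12 weeks. At 7 weeks 1 of the 10 was higher, as were 1.4% of all genes: the carbonic anhydrase Car4 (0.83 ± 0.18, adjusted p = 0.0085). At 12 weeks 2 were lower, as were 1.02% of all genes: Slc26a3 and Emp1 (-0.78 ± 0.14, adjusted p = 0.0019). Guca2a (-0.31 ± 0.19), Krt20 (-0.24 ± 0.15), Lypd8 (-0.05 ± 0.12) and Cdhr2 (-0.05 ± 0.13) were on the lower side at 7 weeks. Car1 (0.42 ± 0.15), Ceacam1 (0.07 ± 0.09) and Lypd8 (0.02 ± 0.11) were on the higher side at 12 weeks. These did not meet the thresholds, and the remaining markers lay on the side of those past the thresholds at each age. Car4 was also lower at 12 than at 7 weeks in Il10-/- mice (-1.40 ± 0.18, adjusted p = 0.00088). The part of these markers in the Aqp8 and Aqp4 differences was not tested.

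Posterior Hox genes mark the distal end of the gut. At 7 weeks 3 of the 11 measured were higher in Il10-/- mice, as were 1.4% of all genes: Hoxa9 (0.79 ± 0.12, adjusted p = 0.00067), Hoxa10 (1.08 ± 0.13, adjusted p = 0.00011) and Hoxa11 (0.81 ± 0.13, adjusted p = 0.00099). Without adjustment 5 of the 11 had p under 0.05 in limma at 7 weeks, in either direction and with these 3 among them. The share of all genes with such a p was not counted and is at least the 8.2% past the adjusted p. Lower group means in Il10-/- than in C57 mice included Hoxd10 (-0.48 and -0.29), Hoxd11 (-0.43 and -0.23), Hoxb13 (-0.59 and -0.49) and Hoxd13 (-0.36 and -0.32). Hoxa13 averaged 0.27 and 0.14. At 12 weeks 0 of 11 met the limma thresholds. An unadjusted p under 0.05 was found for 1, as for at least 10.1% of all genes: Hoxd10 (-0.31 ± 0.08, adjusted p = 0.016, under the fold). The median difference of the 11 was -0.04 at 7 weeks and -0.05 at 12 weeks. The list mean was -0.41 to -0.20 in Il10-/- mice and -0.57 to -0.43 in C57 mice at 7 weeks, and -0.61 to -0.51 in Il10-/- mice and -0.58 to -0.43 in C57 mice at 12 weeks. Hoxa10 was at -0.80 (mouse 75), -0.36 (mouse 77) and -0.21 (mouse 78), the same order of mice as for Aqp4 and Aqp8. Hoxa11 had this order too (-1.20, -1.04 and -0.75), whereas Hoxa9 had another (-0.22, 0.40 and 0.31). An order of 3 mice is readily shared, and nothing is read from it. Whether the position of the tissue piece along the colon had a part in these differences was not tested.

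For the endothelium, where Aqp1 is known, 8 of 8 markers were measured. At 7 weeks, where 1.01% of all genes were lower past the thresholds, 2 were lower in Il10-/- mice. These were Emcn (-0.78 ± 0.08, adjusted p = 4.1e-05) and Cldn5 (-0.64 ± 0.11, adjusted p = 0.0021). At 12 weeks 0 met the limma thresholds. An unadjusted p under 0.05 was found for 5 at 7 weeks and 1 at 12 weeks. Of all genes at least the 8.2% and 10.1% past the adjusted p had such a p, and the full share was not counted. The median difference of the 8 was -0.25 at 7 weeks and -0.06 at 12 weeks. The list mean was -0.65 to -0.57 in Il10-/- mice and -0.34 to -0.28 in C57 mice at 7 weeks, without overlap. At 12 weeks it was -0.46 to -0.37 in Il10-/- mice and -0.42 to -0.29 in C57 mice, with overlap. Red blood cell genes, of which 3 of 5 were measured, averaged -1.42 to -1.29 in Il10-/- mice and -1.11 to -0.98 in C57 mice at 7 weeks. Here 0 of 3 met the limma thresholds, and all 3 had an unadjusted p under 0.05, with Hba-a1 short of the fold only (-0.57 ± 0.16, adjusted p = 0.042). At least 8.2% of all genes, the share past the adjusted p, had an unadjusted p under 0.05 at that age. The part of these cells in the Aqp1 difference was not tested.

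Further cell types were described by shorter lists. The shares of all genes past the thresholds at each age are those given above. Of 6 adipocyte markers, beside the adipocyte channel Aqp7, Cidec was lower at 12 weeks (-1.17 ± 0.33, adjusted p = 0.036). Of 5 smooth muscle markers, Myh11 (-0.87 ± 0.21, adjusted p = 0.013) and Cnn1 (-0.85 ± 0.23, adjusted p = 0.027) were lower at 12 weeks. Of 7 neutrophil markers S100a8 (1.53 ± 0.38 and 2.41 ± 0.35) and S100a9 (2.00 ± 0.37 and 3.33 ± 0.35) were higher at 7 and 12 weeks, with adjusted p from 0.02 to 1.2e-05. They were also the only 2 of the 7 with an unadjusted p under 0.05 at each age. Of 6 goblet cell markers Spink4 was lower at 12 weeks (-0.88 ± 0.19, adjusted p = 0.0054). The median difference of the 6 was -0.14 at that age. Muc2 averaged 1.29 in mice of either genotype, and Agr2 averaged 0.36 in Il10-/- mice and 0.22 in C57 mice. Zg16 of this list was at the shared value on 15 of 15 arrays, and Spink4 was also the only called one of the other 5 markers at that age. Of 3 macrophage and 3 enteric glia markers 0 met the limma thresholds at either age, and without adjustment only 1 macrophage marker had p under 0.05, Adgre1 at 12 weeks (0.33 ± 0.10, adjusted p = 0.039, under the fold). At least 10.1% of all genes, the share past the adjusted p, had an unadjusted p under 0.05 at 12 weeks. Of the macrophage markers Cd163 went the other way at that age, at -0.05 in Il10-/- mice and 0.20 in C57 mice on average.

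For the 3 members with a genotype difference past the thresholds, the genes with the closest course over the 15 mice were sought among 18715 genes. Closeness was the root mean square difference of log2 ratios after each gene was centred on its own mean, and the values describe these mice only. For Aqp1 the nearest were Prkg2 (0.25), which encodes a cGMP-dependent protein kinase, Prnp (0.25), which encodes the prion protein, and the kallikrein gene Klk1 (0.26), where the spread of Aqp1 itself was 0.56 on the same measure. For Aqp4, with a spread of 0.71, they were Prr13 (0.35), the annexin gene Anxa8 (0.39) and Hoxa10 (0.39). For Aqp8, with a spread of 1.63, no gene came near: Spink4 (1.15), Mpp6 (1.18) and Slc26a3 (1.19) were the closest.

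These neighbours kept the group order of their aquaporin in part. They were chosen for closeness over the same mice, so a shared order follows in part from that choice. Prkg2 averaged -0.80 in Il10-/- mice and 0.18 in C57 mice at 7 weeks, and -0.60 in Il10-/- mice and -0.27 in C57 mice at 12 weeks. Anxa8 averaged 0.77 in Il10-/- mice and -0.80 in C57 mice at 7 weeks, and 0.24 in Il10-/- mice and -0.64 in C57 mice at 12 weeks. Spink4, a gene of goblet cells, averaged 0.97 in Il10-/- mice and 0.31 in C57 mice at 7 weeks, and 1.20 in Il10-/- mice and 2.08 in C57 mice at 12 weeks. Like Aqp8 it was lowest in C57 mice of 7 weeks and highest in C57 mice of 12 weeks, although its range was narrower.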

How the data were processed

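Colon RNA of 15 mice (3 Il10-/- and 4 C57 of 7 weeks, 4 Il10-/- and 4 C57 of 12 weeks) was labelled with Cy3 and hybridized with a Cy5-labelled reference pool, without dye swaps. The authors left the background uncorrected, applied LOESS to the ratios of each array and deposited log2 ratios, 1 per feature and array; the submitters' processing notes name limma without a version. The direction was taken from the dyes in the labels and checked on liver genes of the pool. Groups come from the sample titles, since the characteristics give all arrays 1 strain and age.

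Of 44290 features, 42128 were measured on 2 or more arrays in each of the groups. The 32016 that name 1 gene were averaged to 19076 genes. The other 10112 name no gene or several and gave no gene value. Values repeated across many features of an array, on 73 to 149 features, touched 0 of the 13 aquaporin features and, among the listed genes, Krt20, Car1, Zg16 and Clca1. Genes were tested with limma 3.58.1 (R 4.3.3; lmFit and eBayes, 4 group means, 11 residual degrees of freedom). Thresholds were a change of at least 1.5-fold together with an adjusted p below 0.05 (Benjamini-Hochberg, over all genes). Errors of differences are SE. The 5 comparisons share mice and are not independent of each other. Each mouse is a separate animal.

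The members and the gene lists were chosen with earlier results of these data known. Named are the 8 members, the 4 other family genes and, from each list, at most 4 genes past the thresholds in a comparison. The 3 nearest genes of each member past the thresholds between genotypes are also named. Some listed genes that passed the adjusted p and missed the fold were named after their values were seen. So were some that went the other way, and genes at the shared value. Simulated data with known changes were used to test the script of the fit. Promoters and coordinates are RefSeq, GRCm38.p6. Figures were drawn with matplotlib 3.10.9 (Python 3.11.15). Alternatives were other normalizations, filters, fits, thresholds and feature choices, and leaving out each mouse.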

Additional observations from a re-analysis of the deposited data

Results flagged for a closer look

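For 3 members the genotype difference itself differed between the ages past the thresholds: the 12-week minus the 7-week difference was -5.02 ± 0.62 for Aqp8, -1.32 ± 0.28 for Aqp4 and 1.15 ± 0.27 for Aqp1 (log2, SE). The members were chosen with these contrasts known.

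A mouse far from the others of its group was found in 3 of 36 groups of 4 mice examined, over the aquaporin genes and other family genes with 4 values, by a test that flags about 5% of groups by chance. Aqp4 was at -0.022 in mouse 92, against -0.53 to -0.46 in the other Il10-/- mice of 12 weeks. Aqp5 was at 0.39 in mouse 66, against -0.19 to -0.10 in the other C57 mice of 12 weeks. Aqp11 was at -0.0088 in mouse 63, against 0.15 to 0.17 in the other C57 mice of 12 weeks. No cause was tested for these values.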

How the results depend on the processing

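Over 28 alternative settings, 1082 of 1107 differences of the members kept their side of the thresholds, 21 lost the call and 4 gained it. Most of the 1107 did not meet the thresholds in the reported fit either, so this total says little about the calls. The 21 losses fell on the few that did, mostly on the Aqp1 difference between the ages. The sign of 38 differences of Aqp3, Aqp5, Aqp7 and Aqp11 changed, with 0 of these past the thresholds in either setting. The count of members past the thresholds at 12 weeks was 2 with the adjusted p alone, where Aqp11 joined Aqp8 and 10.1% of all genes passed, and 0 in a test against a fold of 1.5 (treat). Treat also gave 2 at 7 weeks, without Aqp1 (-1.42), 1 for the difference between the ages (Aqp8) and 0 between ages within Il10-/- mice, where a fit to the compared groups alone gave 0 too. Leaving out each mouse gave 3 to 3 members at 7 weeks, 1 to 2 at 12 weeks (2 without Il10-/- mouse 96, with Aqp11 at -0.60), 1 to 3 for the difference between the ages (1 without C57 mouse 44 or Il10-/- mouse 96), 1 to 2 between ages within Il10-/- mice (2 without mouse 75) and 1 to 1 within C57 mice. The Aqp1 difference between the ages lost its call without any 1 of the mice named beside it. The cause of these losses was not tested.

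Over all genes, treat left 62 at 7 weeks, 132 at 12 weeks and 3 for the difference between the ages, against 461, 481 and 219. The adjusted p alone gave 1565, 1929 and 430, and a fold of 2 gave 131, 189 and 58. Between ages within Il10-/- mice these rules gave 7, 264 and 31, against 80, and within C57 mice 7, 204 and 26, against 77. Without C57 mouse 44 or 45 the count within C57 mice was 36 or 46, without Il10-/- mouse 78 the difference between the ages had 136 and the ages within Il10-/- mice 51, and the compared groups alone gave 52 there. No paired analysis was possible because the replicate numbers are mouse numbers that the groups do not share. How far dim signal limits single genes is unknown without intensities.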
